A study of Mus musculus with 22 samples.

Results

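In whole-brain RNA-seq libraries, 10 genes typical of 2 neuron types of the cerebellar cortex were followed: 6 granule cell genes (Gabra6, Cbln1, Cbln3, Fat2, Zic1 and En2) and 4 Purkinje cell genes (Pcp2, Car8, Calb1 and Itpr1). They are 10 of the 56748 genes in the read count table, chosen by symbol from a list of cerebellar genes with earlier results of these data known. All 10 passed the filter on low counts. The study asked how an early exposure to chemicals used in models of Gulf War illness, and later cannabidiol (CBD), bear on the aged brain's response to bacterial lipopolysaccharide (LPS), an endotoxin that sets off inflammation. Brains came from 22 male C57BL/6J mice, 1 library each, all aged to 17.5 months.

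CtrlVeh (3 mice) received only vehicles and PBS. CtrlVehLPS (3 mice) received vehicles and then 0.33 mg/kg LPS. GWVeh (4 mice) had received 10 daily injections, the first at the age of 10 weeks, of 0.7 mg/kg pyridostigmine bromide, a cholinesterase inhibitor, and 200 mg/kg permethrin, a pyrethroid insecticide, and later received the CBD vehicle and PBS. GWVehLPS (4 mice) was the same with LPS. GWCBD30 (4 mice) and GWCBD30LPS (4 mice) had the same chemicals, then 30 mg/kg CBD daily for 28 days and every 2 days for 2 weeks, followed by PBS or LPS. Every brain was taken 24 hours after LPS or PBS, and no unexposed group received CBD.

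Granule cells are small excitatory neurons and the most numerous neurons of the mammalian brain. Their axons, the parallel fibres, form synapses on the dendrites of Purkinje cells, large inhibitory neurons that carry the only output of the cerebellar cortex. Gabra6 encodes a GABA-A receptor subunit nearly restricted to granule cells, Cbln1 a protein secreted from parallel fibres that holds their synapses on Purkinje cells together, Cbln3 its relative that is secreted together with Cbln1, and Fat2 an atypical cadherin of parallel fibres. Zic1 and En2 are developmental transcription factors that stay on in granule cells and are also made outside the cerebellum. Pcp2 encodes a modulator of G protein signalling found in Purkinje cells and retinal bipolar cells, Car8 a carbonic anhydrase-like protein that binds the inositol trisphosphate receptor, Itpr1 that receptor itself, a calcium release channel, and Calb1 the calcium buffer calbindin. Calb1 and Itpr1 are also abundant in forebrain neurons.

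All 10 are protein-coding genes in GENCODE M21 on GRCm38. The granule genes lie at chr11:42306437-42321072 on the minus strand (Gabra6), chr8:87468405-87472609 minus (Cbln1), chr14:55878913-55884392 minus (Cbln3), chr11:55250609-55336564 minus (Fat2), chr9:91358058-91365810 minus (Zic1) and chr5:28165694-28172166 plus (En2). The Purkinje genes lie at chr8:3623371-3625545 minus (Pcp2), chr4:8143362-8239041 minus (Car8), chr4:15881264-15908064 plus (Calb1) and chr6:108213096-108551109 plus (Itpr1). No 2 members overlap.

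Gabra6 and Pcp2 are used below as the narrowest marker of each cell type. The 250 bases before a RefSeq start of each (GRCm38.p6) are shown because these genes varied less closely together than any other pair. The windows are chr11:42321073-42321322 and chr8:3625548-3625797, both read 5′ to 3′ on the minus strand. Capitals mark AGGTCA, the half-site of ROR nuclear receptors, or CAGATG, an E-box bound by NeuroD and Atoh factors, searched on both strands.
Gabra6: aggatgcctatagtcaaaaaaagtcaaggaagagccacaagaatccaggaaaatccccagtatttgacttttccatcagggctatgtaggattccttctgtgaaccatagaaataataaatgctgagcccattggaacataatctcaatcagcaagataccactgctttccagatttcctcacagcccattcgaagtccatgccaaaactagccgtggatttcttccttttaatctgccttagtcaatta
Pcp2: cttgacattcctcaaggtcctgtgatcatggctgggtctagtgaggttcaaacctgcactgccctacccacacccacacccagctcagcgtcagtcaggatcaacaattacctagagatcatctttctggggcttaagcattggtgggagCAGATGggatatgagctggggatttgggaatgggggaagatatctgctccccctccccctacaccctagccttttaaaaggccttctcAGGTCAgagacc
The Pcp2 window shown held CAGATG with its first base at -100 and AGGTCA at -12 from the start, and the Gabra6 window held neither. Pcp2 had further starts that are not shown. Their windows held CAGATG at -175 and AGGTCA at -87 or -26, except chr8:3625283-3625532, which held neither. The window of the granule gene Fat2 held AGGTCA at -31, as its reverse complement. Among 32851 promoters of this length in the table, AGGTCA occurred in 14% and CAGATG in 14.4%, so such matches are common. The table held 5 of the 10 members, Gabra6, Cbln3, Fat2, Zic1 and Pcp2.

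Library totals ran from 17.2 to 31.2 M counts, and mitochondrial transcripts took 3.83% to 5.04% of them. Levels are given as CPM, the counts of a gene per M counts of its library, with library sizes scaled by the trimmed mean of M values (TMM). CtrlVehLPS replicate 1 was known from earlier work on these data to lack cerebellar transcripts. All 10 members were lower in it than in any other library and 4 of them were nearly absent. Results of the members that hold this library are therefore also given without it, over 21 libraries.

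In CtrlVehLPS replicate 1, Gabra6 had 0 counts, against 100.2 ± 17.2 CPM (SD, n = 21) elsewhere. With a floor of 3 counts, 0.111 CPM in this library, Gabra6 was at least 903-fold lower there. Cbln3 (23 counts), Fat2 (32 counts) and Pcp2 (8 counts) were at 0.337%, 0.708% and 0.735% of their mean in the other libraries, with 95% exact Poisson intervals of 0.213% to 0.505%, 0.484% to 0.999% and 0.318% to 1.45%. These 4 genes, 3 of granule and 1 of Purkinje cells, were thus nearly absent, and the intervals of the last 3 cover counting error only.

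Car8 was left at 4.495% and En2 at 9.85% of their level in the other libraries. Cbln1 stood at 15.1%, Zic1 at 25.2%, Calb1 at 48.5% and Itpr1 at 55.2%, the last with 18413 counts. The order did not follow the cell type: Purkinje genes were both among the lowest (Pcp2) and the highest (Calb1 and Itpr1). Across the 12234 genes with at least 5 CPM elsewhere, the median gene stood at 100.3%. Gabra6, Cbln3, Fat2, Pcp2 and Car8 ranked 1, 3, 4, 5 and 12 from the bottom, and Calb1 and Itpr1 ranked 152 and 207. Nrk, Mybpc3, Cnpy1 and Crtam completed the lowest 8. In whole-brain RNA, fewer cells of a type and less RNA per cell cannot be told apart.

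**Figure D1:**
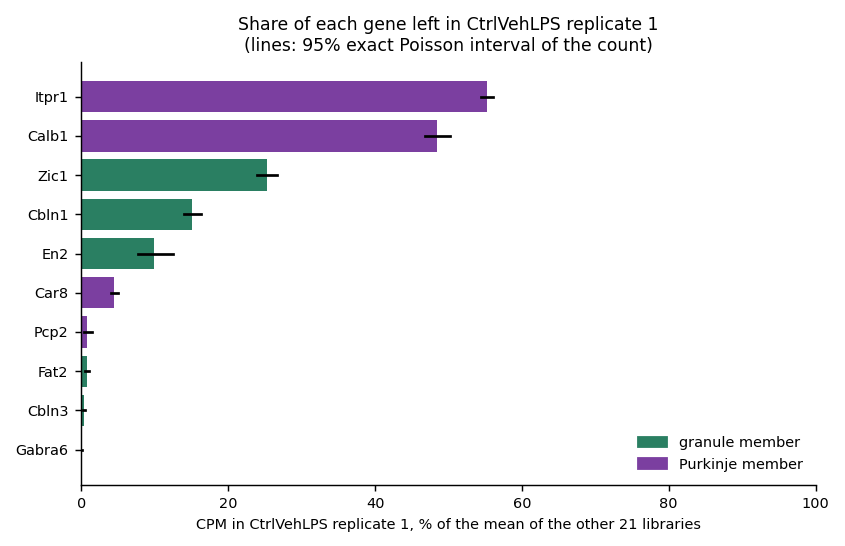
Bars give the CPM of each gene in CtrlVehLPS replicate 1 as a percent of its mean over the other 21 libraries (horizontal axis, 0 to 100), green for granule and purple for Purkinje members, and black lines the 95% exact Poisson interval of the count. Gabra6 is at 0, Cbln3, Fat2 and Pcp2 are under 1.5%, and Calb1 and Itpr1 keep 48.5% and 55.2%.

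Other lists moved in the same library. The summed CPM of 20 further Purkinje genes was 1168 there against 1820 to 2319 elsewhere. That of 16 further granule genes was 1721 against 1987 to 2282, and that of 5 Bergmann glia genes 549 against 577 to 800. Bergmann glia are astrocytes that surround Purkinje cells. The last 2 sums were mostly 1 gene each, Slc17a7 (1096 CPM there, mean 1011 elsewhere) and Slc1a3 (499.9, mean 545.7). The mean log2 CPM, where each gene counts alike, was 4.71 against 5.575 to 6.111 for the granule genes. It was 4.565 against 5.32 to 5.791 for the Bergmann genes and 4.081 against 5.428 to 5.937 for the Purkinje genes. The 19 brainstem genes, mostly Hox genes, summed to 27.6 CPM against 56.2 to 164, with 4 of them at 0. The 9 olfactory bulb genes summed to 113 CPM against 23.45 to 63.7, the 8 cortex genes to 431 against 304 to 365, the 7 striatum genes to 779 against 542.5 to 755, and the 9 choroid plexus genes to 284 against 386 to 775. The 13 exocrine pancreas genes summed to 339 CPM against 4.05 to 6.28, and 13 genes of neurons and glia throughout the brain to 10660 against 9467 to 12160. The part of any of these in the low cerebellar counts was not tested.

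Over the other 21 libraries the members spanned a wide range of levels. On the scale of CPM per kilobase of exon, the order of mean levels was Itpr1 (67.3), Car8 (60.6), Cbln1 (58.3), Cbln3 (51.9), Calb1 (50.3), Gabra6 (40.2), Zic1 (35.7), Pcp2 (22), Fat2 (11.5) and En2 (7.43). Only the steps from Calb1 to Gabra6, from Zic1 to Pcp2, from Pcp2 to Fat2 and from Fat2 to En2 were wider than the larger SD of the pair. Granule and Purkinje genes were interleaved in this order.

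Gabra6 was at 116, 109.2 and 127 CPM in CtrlVeh and at 0, 88.8 and 87.6 CPM in CtrlVehLPS. It was at 100.5, 72.1, 64.6 and 108.6 CPM in GWVeh and at 88.7, 97.4, 127 and 133 CPM in GWVehLPS. In the CBD groups it was at 88.7, 97.4, 100.1 and 107 CPM without LPS and at 100.9, 107.5, 84.7 and 96.0 CPM with LPS. All CtrlVeh values thus lay above those of both CtrlVehLPS and GWVeh, GWVeh replicates 2 and 3 were the lowest of the 21, and GWVehLPS replicate 4 the highest.

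Pcp2 was at 35.9, 34.35 and 46.1 CPM in CtrlVeh and at 0.296, 38.0 and 43.6 CPM in CtrlVehLPS. It was at 52.5, 29.5, 31.6 and 37.6 CPM in GWVeh and at 38.0, 52.4, 43.0 and 54.7 CPM in GWVehLPS. In GWCBD30 it was at 38.4, 42.6, 48.5 and 27.2 CPM and in GWCBD30LPS at 42.2, 37.1, 33.8 and 37.7 CPM. The Pcp2 ranges overlapped in every pair of groups compared, and GWVeh held both 2 of the low libraries and 1 of the highest.

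Calb1 was at 251, 284 and 262 CPM in CtrlVeh and at 118, 228.5 and 208 CPM in CtrlVehLPS. It was at 259, 205, 196 and 245 CPM in GWVeh and at 225, 280.4, 259 and 287 CPM in GWVehLPS. In GWCBD30 it was at 233, 239, 268 and 249 CPM and in GWCBD30LPS at 246, 269, 216 and 212 CPM. As with Gabra6, every CtrlVeh value of this calcium buffer was above every CtrlVehLPS value, while GWVeh overlapped CtrlVeh through replicate 1.

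Cbln3 was at 266, 260.2 and 311.5 CPM in CtrlVeh, at 0.850, 224 and 243 CPM in CtrlVehLPS, at 277, 200, 175 and 257 CPM in GWVeh and at 248.5, 269, 315 and 295 CPM in GWVehLPS. All 4 GWVehLPS values lay above the CtrlVehLPS values, also without replicate 1. Car8 showed the same gap, with 211, 245, 277 and 306.5 CPM in GWVehLPS against 10.5, 209 and 202 CPM in CtrlVehLPS. The lowest GWVehLPS value of Car8 exceeded the highest CtrlVehLPS value by under 2 CPM.

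En2 was at 28.5, 28.2 and 32.7 CPM in CtrlVeh, at 2.59, 21.9 and 23.2 CPM in CtrlVehLPS and at 27.6, 19.5, 17.2 and 23.4 CPM in GWVeh. CtrlVeh lay above both other groups in this homeobox gene. The remaining members had wider overlap. Over the 21 libraries Cbln1 averaged 177 ± 25.0 CPM, Fat2 167 ± 31.4, Zic1 203 ± 27.9 and Itpr1 1232 ± 105 (SD, n = 21).

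The same libraries were low or high for nearly all members. GWVeh replicates 2 and 3 were each among the 3 lowest of 21 libraries in all 10 genes, and GWVehLPS replicate 4 among the 3 highest in all 10. GWVehLPS replicate 3 was among the 3 highest in 7 and CtrlVeh replicate 3 in 6. In the 2 low GWVeh libraries the 20 further Purkinje genes summed to 1820 and 1841 CPM, against 2198 and 2116 in the other GWVeh libraries, and the 16 further granule genes to 2042 CPM in each, against 2229 and 2175. Olfactory bulb genes (31.2 and 29.1 against 32.0 and 27.1 CPM) and cortex genes (340 and 356 against 327.5 and 339 CPM) were close across the 4 libraries. Striatum genes were lower in the 2 low libraries (606 and 617.5 against 633 and 744.5 CPM). Brainstem genes (130.5 and 81.5 against 127 and 78.9 CPM) and choroid plexus genes (676 and 427 against 746 and 561 CPM) varied more widely. The part of tissue composition in these low libraries was not tested.

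**Figure D2:**
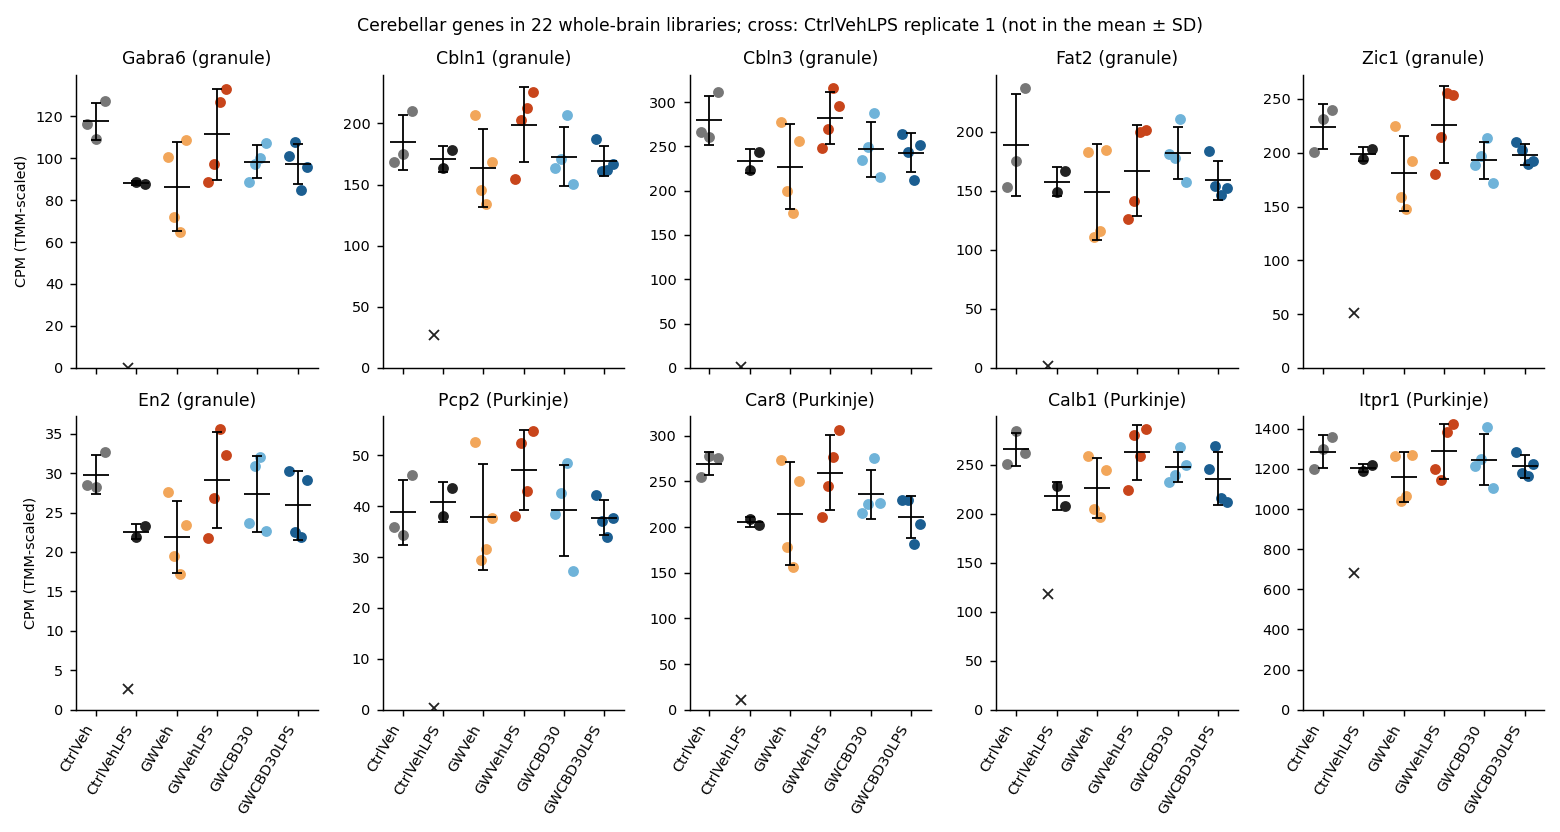
Each panel plots the CPM of 1 gene (vertical axis, from 0) by group (horizontal axis), 1 point per library, with the mean and SD of each group in black. The cross is CtrlVehLPS replicate 1, which is not in the mean. Without it, CtrlVehLPS lay below CtrlVeh with no overlap in 5 members, Gabra6, Cbln3, En2, Car8 and Calb1, beside 15.5% of all genes. GWVeh lay below CtrlVeh with no overlap in 2 members, beside 4.59% of all genes, and GWVehLPS above CtrlVehLPS in 2, beside 5.85%. The 2 low GWVeh libraries recur in every panel.

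Without CtrlVehLPS replicate 1, group means differed little. The highest group mean was 1.11 times the lowest for Itpr1 and 1.36 times for Gabra6 and En2, the extremes of the 10. GWVeh was lowest in 7 members (Gabra6, Cbln1, Cbln3, Fat2, Zic1, En2 and Itpr1), GWCBD30LPS in Pcp2 and CtrlVehLPS in Car8 and Calb1. Ordered by level, neighbouring groups differed by more than the larger SD in 1 of 5 steps for Cbln3 and for Zic1, and in 0 of 5 for the other 8 genes.

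Under LPS in control mice, all 10 members were lower in the fit to 22 libraries, by 0.32 (Itpr1) to 1.03 (Gabra6) on the log2 scale, and 0 passed the threshold of adjusted p 0.05 (edgeR quasi-likelihood test, Benjamini-Hochberg over 20026 genes), where 0.494% of all genes passed. Without replicate 1, log2 fold changes ran from -0.41 to 0.07, 9 of 10 negative, again with 0 passing, against 0.301% of 20601 genes. Gabra6 went from -1.03 ± 0.72 (SE, adjusted p = 0.605) to -0.41 ± 0.21 (adjusted p = 0.453), so replicate 1 moved its value by more than 1.5 times. Calb1 alone of the 10 had an unadjusted p under 0.05 in each fit, a share near that of all genes (12.2% and 11.7%), with -0.53 ± 0.18 (edgeR adjusted p = 0.232) and -0.28 ± 0.12 (adjusted p = 0.344). Values did not overlap between the groups for 5 of 10 members, Gabra6, Cbln3, En2, Car8 and Calb1, with or without replicate 1. Of all 20026 genes, 8.13% were lower without overlap in the 22 libraries and 15.5% without replicate 1.

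Among the further cerebellar genes in this comparison, 1 of 16 granule and 1 of 20 Purkinje genes fell in the fit to 22 libraries and 0 without replicate 1. Their medians without it were -0.11 and -0.09, with 11 of 16 and 15 of 20 negative, against a median of -0.01 over all genes. Olfactory bulb genes ran the other way, 9 of 9 positive with 1 past the threshold and a median of 1.72. Their summed level was 23.45 to 29.3 CPM in CtrlVeh, with up to 2 of 9 genes at 0. It was 63.7 and 57.0 CPM in CtrlVehLPS replicates 2 and 3, and 113 CPM in replicate 1. Brainstem genes were positive in 17 of 19, with a median of 0.82 and 0 past the threshold. The 2 remaining CtrlVehLPS brains thus held more transcript of both regions than the CtrlVeh brains, and its part in the cerebellar values was not tested.

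In exposed vehicle mice, LPS went with higher values in all 10 members, by 0.15 (Itpr1) to 0.40 (En2) on the log2 scale in both fits. None passed the threshold in either, against 0.939% of genes in the fit to 22 libraries and 1.29% in that to 21. In the latter 5 members had an unadjusted p under 0.05, Gabra6, Cbln3, Zic1, En2 and Calb1, beside 11.6% of all genes, and in the fit to 22 none did, beside 10.4%. Here and in the contrasts below, the members varied together across libraries, so a count of them is not one of independent genes. Zic1 had 0.32 ± 0.12 (SE, edgeR adjusted p = 0.282) and Gabra6 0.36 ± 0.16 (adjusted p = 0.375). With GWVeh replicates 2 and 3 also left out, values ran from -0.14 to 0.19, 8 positive and 2 negative. These 2 libraries were picked because they were low in every member, so a higher GWVeh mean without them follows from the choice, and the values are given as a description. The further granule genes were positive in 15 of 16 and the further Purkinje genes in 18 of 20, with medians of 0.24 and 0.14 over 21 libraries, and none passed.

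In exposed mice given CBD, the LPS difference was near 0. Log2 fold changes ran from -0.20 (Fat2) to 0.04 (Zic1), 9 of 10 negative, in both fits. None passed or had an unadjusted p under 0.05, and 0.00499% of all genes passed over 22 libraries and 0.0631% over 21. The 95% intervals over 21 libraries ran from -0.19 to 0.12 for Itpr1, from -0.25 to 0.11 for Calb1, from -0.30 to 0.26 for Cbln3, from -0.50 to 0.18 for Car8 and from -0.62 to 0.23 for Fat2.

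Averaged over the 3 arms, the sign of the LPS difference depended on 1 library. All 10 members were negative over 22 libraries, from -0.29 to -0.07, and 5 were negative and 5 positive without CtrlVehLPS replicate 1, from -0.10 (Fat2) to 0.11 (Pcp2). With GWVeh replicates 2 and 3 also left out, 9 were negative, from -0.20 to 0.03, a shift whose direction that choice fixes. None passed or had an unadjusted p under 0.05 in either fit, while 3.52% and 4.36% of all genes passed. Calb2, the calcium buffer calretinin, which granule cells share with other neurons, rose by 0.22 ± 0.06 (SE, edgeR adjusted p = 0.0321) and by 0.25 ± 0.06 (adjusted p = 0.00627) without that library. It was the only one of the 36 further granule and Purkinje genes to pass. Cadps2, a secretion factor, and Slc17a7, a vesicular glutamate transporter, had -0.06 ± 0.04 and -0.05 ± 0.04 over 22 libraries, and -0.04 and -0.07 over 21. Rora, a nuclear receptor needed by Purkinje cells, had -0.15 ± 0.06 and -0.11 ± 0.05, and 0 of these 3 passed in either fit.

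Of the markers of other regions in this average, the glutamate transporter Slc1a3, of Bergmann glia and other astrocytes, rose by 0.13 ± 0.04 (edgeR adjusted p = 0.0314), and by 0.15 ± 0.04 over 21 libraries (adjusted p = 0.0122). Hopx and Fabp7 had -0.16 and -0.14, and -0.10 and -0.19 over 21. The bulb genes Trh, Omp and Shisa3 rose by 0.57, 2.16 and 1.08, and by 0.55, 2.14 and 0.88 over 21 libraries. The brainstem genes Slc6a4, Tph2 and Hoxa4 had 0.98, 0.85 and 0.61 over 22 libraries, and Hoxa4 passed without CtrlVehLPS replicate 1 (0.81, adjusted p = 0.0173). The microglial genes Csf1r, Tmem119 and Cx3cr1 rose by 0.59, 0.46 and 0.52, and by 0.62, 0.45 and 0.50 over 21 libraries. The cortex genes Lhx2 and Emx2, the striatum genes Drd2, Ppp1r1b and Adora2a, the choroid plexus genes Kcnj13, Otx2 and Clic6 and the pancreas genes Pnlip and Cela1 did not pass in either fit.

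Chemical exposure without LPS went with lower values in all 10 members, from -0.44 (Gabra6 and En2) to -0.04 (Pcp2) in both fits. None passed, and 0% of all genes did in either fit (22 or 21 libraries). Over 21 libraries Gabra6 (-0.44 ± 0.17), Zic1 (-0.31 ± 0.13), En2 (-0.44 ± 0.18) and Calb1 (-0.23 ± 0.10) had an unadjusted p under 0.05 by edgeR, with adjusted p of 0.436 to 0.467, beside 9.78% of all genes. Over 22 libraries none of the 10 members did, beside 8.8% of genes. The groups did not overlap for 2 members, En2 and Gabra6, each with a gap under 1 CPM, and 4.59% of all genes were lower without overlap. With GWVeh replicates 2 and 3 left out as well as CtrlVehLPS replicate 1, the range was -0.23 to 0.21, with 8 negative and 2 positive. The choice of those low libraries fixes the direction of this shift. Further granule genes were negative in 14 of 16 and further Purkinje genes in 17 of 20, with medians of -0.18 and -0.16 and none past the threshold.

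Exposure under LPS went with higher values in all 10 members. Over 22 libraries they ran from 0.32 (Itpr1) to 0.95 (Gabra6), and without CtrlVehLPS replicate 1 from 0.08 (Fat2) to 0.36 (En2). None passed, against 0.00499% and 0% of all genes. The groups did not overlap for 2 members, Cbln3 and Car8, and 2.84% of all genes were higher without overlap in the 22 libraries and 5.85% without that library. En2, Calb1 and Itpr1 had an unadjusted p under 0.05 over 22 libraries, beside 7.73% of genes, and Calb1 without that library, beside 4.42% (0.27 ± 0.11, edgeR adjusted p = 0.999).

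CBD in exposed mice without LPS went with higher values in all 10 members, from 0.05 (Pcp2) to 0.32 (En2), in both fits. None had an unadjusted p under 0.05, which 6.43% of genes had over 22 libraries and 7.28% over 21, and 0% of genes passed the threshold in either. This comparison shares GWVeh, with its 2 low libraries, with LPS in exposed vehicle mice, the averaged LPS contrast, exposure without LPS and both interactions. With GWVeh replicates 2 and 3 and CtrlVehLPS replicate 1 left out, 9 of 10 members were negative, from -0.20 to 0.10, a shift whose direction the choice of those libraries fixes. Under LPS, CBD went with lower values in all 10, from -0.31 (Pcp2) to -0.07 (Fat2), and none passed, against 0.240% of genes over 22 libraries and 0.325% over 21. Further granule genes were negative in 13 of 16 and further Purkinje genes in 18 of 20 there. DESeq2 also called 0 of the 10 members in each of the 10 contrasts.

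The difference between exposed and control mice in their LPS response was positive in all 10 members and passed in none, and 0% of all genes passed in either fit (22 or 21 libraries). Without CtrlVehLPS replicate 1 it was largest in En2 (0.81 ± 0.28), Gabra6 (0.78 ± 0.26) and Car8 (0.67 ± 0.26), and Calb1 had the smallest unadjusted p (0.50 ± 0.15, edgeR adjusted p = 0.728). In all, 6 members had an unadjusted p under 0.05 in this fit, beside 6.57% of genes, and 4 over 22 libraries, beside 8.43%. As the members varied together across libraries, these are not counts of independent genes. The difference between CBD and vehicle in the LPS response of exposed mice was negative in all 10, from -0.48 (En2) to -0.19 (Itpr1), with 0 passing against 0.0449% and 0.0825% of genes. Calb1 had the only unadjusted p under 0.05 in it (-0.28 ± 0.13, edgeR adjusted p = 0.728), over 21 libraries, beside 6.59% of genes. With GWVeh replicates 2 and 3 also left out, the first difference ran from -0.01 to 0.59, 9 positive and 1 negative, and the second from -0.26 to -0.06, all 10 negative. The choice of those low libraries fixes the direction of both shifts.

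**Figure D3:**
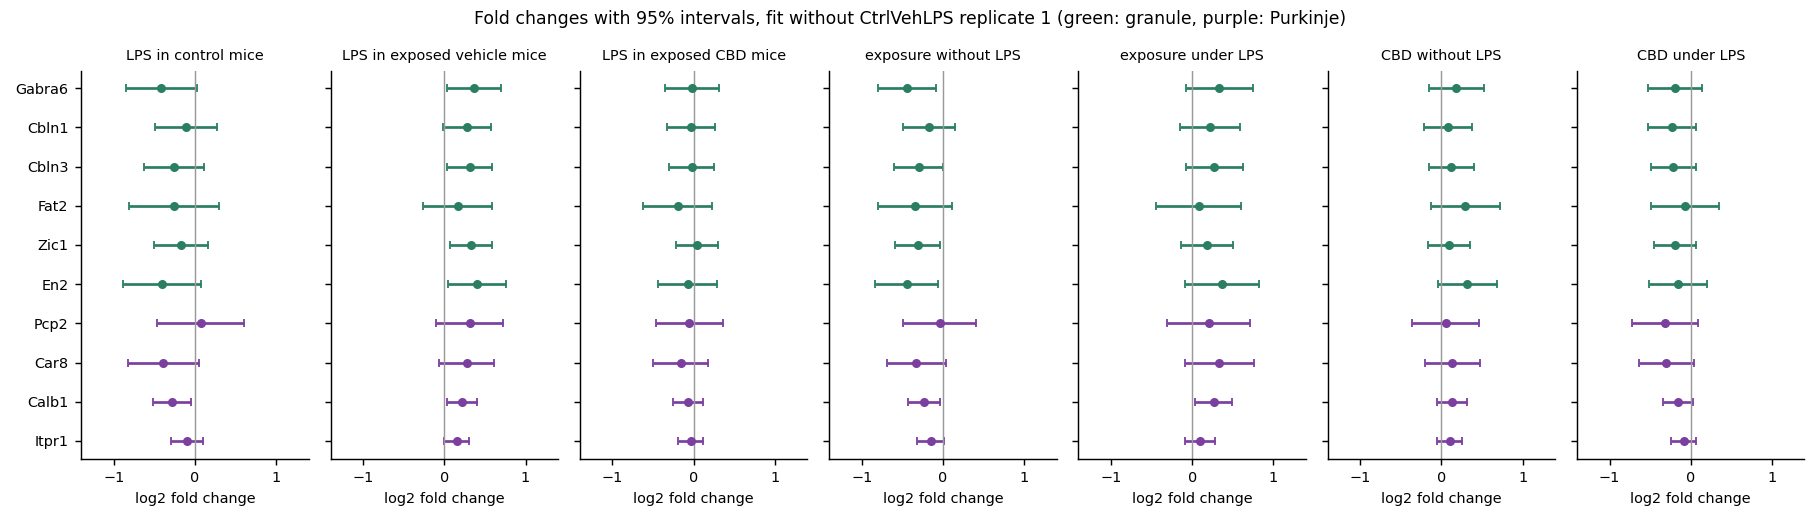
Log2 fold changes (horizontal axes) of the 10 members with 95% intervals for the 7 contrasts of 2 groups, from the fit without CtrlVehLPS replicate 1, with granule members in green and Purkinje members in purple. Points lie left of 0 for exposure without LPS and right of it for LPS in exposed vehicle mice, and no member passed adjusted p 0.05 in any panel.

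Granule and Purkinje genes kept a nearly constant ratio outside CtrlVehLPS replicate 1. The mean log2 CPM of the 6 granule genes minus that of the 4 Purkinje genes was -0.88 ± 0.084 (SD, n = 21), from -1.03 to -0.70. By group it was -0.80 ± 0.08 in CtrlVeh, -0.95 ± 0.06 in GWVeh, -0.89 ± 0.14 in GWVehLPS, -0.87 ± 0.03 in GWCBD30 and -0.84 ± 0.06 in GWCBD30LPS, and the 2 remaining CtrlVehLPS libraries averaged -0.90. The ranges of CtrlVeh (-0.87 to -0.72) and GWVeh (-1.03 to -0.89) did not overlap, with a gap under the SD of either group. In CtrlVehLPS replicate 1 the difference was -3.15 with a prior count of 2 and -3.445 with one of 0.5. Its size thus depends on the prior count, as Gabra6 had 0 counts there. Calb1 and Itpr1, which hold up the Purkinje mean, were the members least reduced in that library.

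The ratio of Gabra6 to Pcp2 CPM, which leaves those 2 genes aside, averaged 3.06 ± 0.26 in CtrlVeh (2.76 to 3.24) and 2.17 in the 2 remaining CtrlVehLPS libraries (2.01 and 2.34). It was 2.32 ± 0.44 in GWVeh, 2.40 ± 0.45 in GWVehLPS, 2.65 ± 0.87 in GWCBD30 and 2.58 ± 0.22 in GWCBD30LPS. CtrlVeh and CtrlVehLPS did not overlap, while every exposed group reached above the lowest CtrlVeh value. GWCBD30 replicate 4 had the highest ratio, 3.95, with Pcp2 at 27.2 CPM, the lowest Pcp2 value of the 21.

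**Figure D4:**
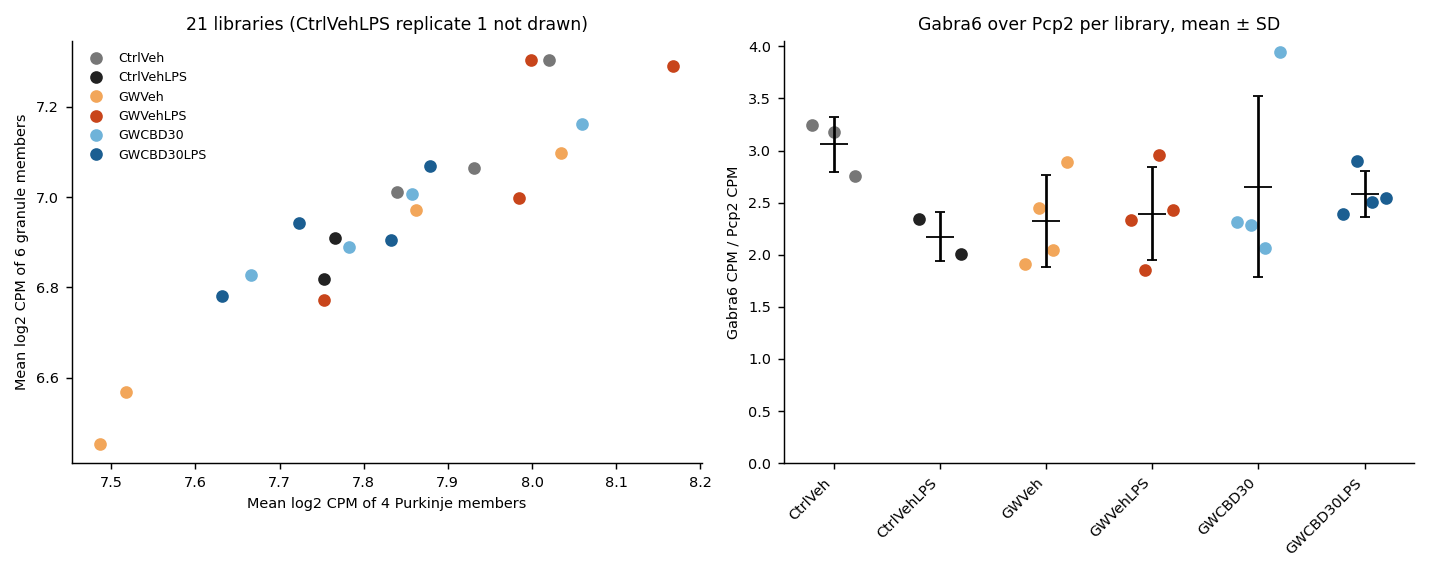
Left, the mean log2 CPM of the 6 granule members against that of the 4 Purkinje members, 1 point per library, for 21 libraries; right, Gabra6 CPM over Pcp2 CPM by group, with mean and SD. The 2 class means rise together, with GWVeh replicates 2 and 3 at the lower left, and the ratio is 2.76 to 3.24 in CtrlVeh and 3.95 in 1 GWCBD30 library.

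Across the 21 libraries every pair of members was positively correlated in log2 CPM, with Benjamini-Hochberg adjusted permutation p at or below 0.0384 for Pearson's r in all 45 pairs. Within granule genes r ran from 0.721 to 0.922 (median 0.833, 15 pairs), within Purkinje genes from 0.527 to 0.907 (median 0.660, 6 pairs) and between the classes from 0.455 to 0.902 (median 0.801, 24 pairs). Pairs within a class were thus no closer than many pairs between classes. After group means were removed, r ran from 0.451 to 0.931 over the 45 pairs. All adjusted permutation p were under 0.05, but these p are too small. The permutation swapped the 21 residuals freely, though 6 group means had been taken from them. All values share the scaling of their library.

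The closest pair was Cbln1 with Zic1 (r = 0.922, Spearman's rho = 0.929, raw permutation p = 1e-05, adjusted 1.96e-05), where 1e-05 is the smallest p that 100000 permutations can give. Car8 followed Calb1 (r = 0.907, rho = 0.917) and Gabra6 (r = 0.902, rho = 0.907), and Pcp2 followed Cbln1 (r = 0.881, rho = 0.849), each with the same p. Without the 2 libraries farthest from the median of the first gene, r was 0.893 for Cbln1 with Zic1, 0.867 for Car8 with Calb1, 0.831 for Gabra6 with Car8 and 0.879 for Cbln1 with Pcp2. The closest partner of a Purkinje gene could thus be a granule gene.

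Gabra6 and Pcp2 were the least correlated pair. Their r was 0.455 (permutation p = 0.0384, adjusted 0.0384) and their rho 0.305 (permutation p = 0.179, adjusted 0.179). Without GWVeh replicates 2 and 3, the libraries farthest from the median of Gabra6, r was 0.224 (permutation p = 0.358). Leaving out the extremes of Gabra6 narrows its range and tends to lower r, so this value is given as a description. On residuals from the group means r was 0.451 (permutation p = 0.0397, adjusted 0.0397). These p are too small, since the permutation did not allow for the removed means. Without the 2 libraries farthest from the median of those residuals, r was 0.449.

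**Figure D5:**
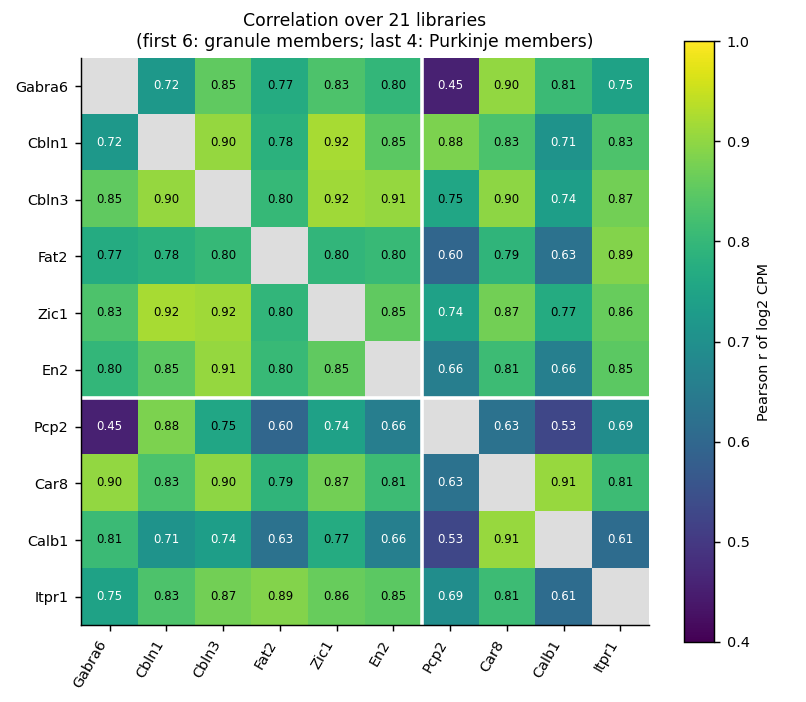
Each square gives Pearson's r of log2 CPM between 2 members over 21 libraries, coloured from 0.4 to 1, with white lines between granule and Purkinje members. The palest square joins Cbln1 and Zic1 (0.922) and the darkest Gabra6 and Pcp2 (0.455).

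Among the 20025 other genes tested, those most like Gabra6 over the 21 libraries were Dipk2a (r = 0.911), Car8 (0.902), Il16 (0.902), Etv1 (0.889) and Ptpn22 (0.873). Those most like Pcp2 were Shf (0.908), Inpp5a (0.9001), Lingo3 (0.891), Sbk1 (0.888) and Cbln1 (0.881). Il16 and Ptpn22 were at 9.96% and 8.80% of their usual level in CtrlVehLPS replicate 1, which had no part in these correlations, while Dipk2a and Etv1 were at 67.1% and 62.5%. Shf, Inpp5a, Lingo3 and Sbk1 were at 52.1%, 50.02%, 75.8% and 46.1% there. Pcp2 ranked 995 among the genes most like Gabra6, and Gabra6 ranked 1549 among those most like Pcp2.

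The members least reduced in CtrlVehLPS replicate 1 had the smallest spread among the other libraries. The SD of log2 CPM over 21 libraries was 0.16 for Calb1 and 0.12 for Itpr1, against 0.26 for Gabra6, 0.21 for Cbln3, 0.28 for Fat2 and 0.27 for Pcp2, the 4 nearly absent there. En2, at 9.85% there, had an SD of 0.28, Car8 one of 0.25, and Cbln1 and Zic1 0.20 each. Over the 10 genes, Spearman's rho between this SD and the percent left in that library was -0.685, a description across genes that share all their libraries.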

How the data were processed

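Poly(A)-enriched stranded libraries from whole brain were read as 150 bp paired ends and aligned to GRCm38/mm10, per the labels' protocols. RNA integrity was at least 8.5. The authors deposited whole-number read counts per gene, not normalized. With the aligner, the counting program and its strand setting not given in the sources used here, reads of antisense partners may be included. Counts were fitted in R 4.3.3 with edgeR 4.0.16: filterByExpr by group, TMM scaling, and a robust quasi-likelihood model of 6 group means over 22 libraries (16 residual degrees of freedom), repeated without CtrlVehLPS replicate 1. In all, 10 contrasts were tested, two-sided, with Benjamini-Hochberg adjustment over all genes and a threshold of 0.05. The scripts were tested on simulated data. Log2 CPM used a prior count of 2.

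The members, lists and tests were chosen with earlier results of these data known. Named were all members, the 3 genes of each other list with the smallest p in the averaged LPS contrast, the 5 genes most like Gabra6 and Pcp2 each, and the 8 lowest in CtrlVehLPS replicate 1. Results for some genes named by this rule are not reported here. Replicates are separate mice. The 30 pairs of libraries within groups differed by a chi-square of 3.86 to 20.4 per gene, so none was a repeat deposit. The alternatives were RLE and upper-quartile scaling, no filter, a strict filter of 1 CPM in 3 libraries, DESeq2 1.42.0, a replicate block, the groups of a contrast alone, and leaving out libraries. Leaving out GWVeh replicates 2 and 3 was chosen after seeing the data. Gene models came from GENCODE M21 and promoters from RefSeq.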

Additional observations from a re-analysis of the deposited data

Results flagged for a closer look

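In GWCBD30, replicate 4 had a ratio of Gabra6 to Pcp2 CPM of 3.95, against 2.07 to 2.31 in the other 3 libraries. Its gap to the nearest library was 0.869 of the range of the group, above Dixon's 95% critical value for 4 libraries. It was the only one of 48 such groups to pass, where chance passes about 1 in 20.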

How the results depend on the processing

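No member passed adjusted p 0.05 in any of the 185 combinations of a contrast with an alternative setting of the fit to 22 libraries (edgeR, or DESeq2 where named); the smallest adjusted p was 0.0974, from DESeq2 for LPS in control mice. In the fit to 21 libraries with each library left out in turn, Zic1 passed once, for LPS in exposed vehicle mice without GWVeh replicate 1 (0.44, edgeR adjusted p = 0.0355). That library held the highest Zic1 value of its group (224 CPM), so leaving it out fixes the direction of this shift. It was 1 call among many members, contrasts and omissions tried, and the share of all genes passing in that fit was not counted. Since no member was called in the 185 combinations, no called value could change sign there. Of the log2 fold changes, 26 changed sign and 1074 kept it with a library left out. With the other settings 17 changed sign and 733 kept it. The correlation of Gabra6 with Pcp2 no longer passed without the 2 libraries farthest from the median (r = 0.224, permutation p = 0.358), and was 0.451 on residuals from group means.

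Counts of all genes past the threshold moved by over 1.5 times with no filter on low counts and with DESeq2: from 99 to 357 and 260 for LPS in control mice, from 188 to 359 and 312 in exposed vehicle mice, from 1 to 64 and 35 in exposed CBD mice, from 705 to 1062 (no filter) averaged over arms, from 48 to 138 and 108 for CBD under LPS, from 9 to 37 and 24 for the CBD by LPS interaction, from 0 to 36 and 9 for exposure without LPS, from 1 to 118 and 25 under LPS and from 0 to 82 and 10 for exposure by LPS. Leaving out 1 library moved them as much: LPS in control mice from 99 to 46, 20 and 26 without CtrlVeh replicates 1, 2 and 3 and to 62 without CtrlVehLPS replicate 1; LPS in exposed vehicle mice from 188 to 125 without GWVeh replicate 3 or 4; the averaged LPS count from 705 to 449 without CtrlVeh replicate 2; and CBD under LPS from 48 to 28, 24 and 22 without GWVehLPS replicate 1 and GWCBD30LPS replicates 1 and 4. The ranges of the smaller counts were 0 to 13 for LPS in exposed CBD mice, 2 to 17 for CBD by LPS, 0 to 24 for exposure under LPS (24 without CtrlVehLPS replicate 3), 0 to 12 for exposure without LPS (12 without GWVeh replicate 4) and 0 to 3 for exposure by LPS (3 without CtrlVehLPS replicate 3). Same-numbered libraries had small r (1 of 51 pairs over 0.1, median 0.009, against a median of -0.001 over 150 other pairs). Still, 10 of 22 libraries were closest to their own number, and whether this exceeds chance was not tested. The replicate block is given here alone. It left 0 members called and moved the counts of all genes from 1 to 16 for LPS in exposed CBD mice and from 0 to 9 for exposure without LPS. It moved them from 1 to 9 for exposure under LPS and from 9 to 15 for CBD by LPS, and by less than 1.5 times elsewhere. The fit with no filter tested 38807 genes, against 20026. With only the groups of the contrast, the count moved from 99 to 57 for LPS in control mice. It moved from 1 to 13 for LPS in exposed CBD mice and from 1 to 2 for exposure under LPS. Upper-quartile scaling moved LPS in exposed CBD mice from 1 to 3. Without GWVeh replicates 2 and 3 and CtrlVehLPS replicate 1, LPS in exposed vehicle mice moved from 188 to 104 and CBD by LPS from 9 to 3. CtrlVehLPS replicate 1, where Gabra6, Pcp2, Cbln3 and Fat2 had 0 to 32 counts, was among the deepest libraries (27.2 M counts).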
